A study of Arabidopsis thaliana with 32 samples.

Results

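The 4 ascorbate peroxidase genes APX1, APX2, sAPX and tAPX and the 3 catalase genes CAT1, CAT2 and CAT3 of Arabidopsis thaliana were followed through roots and rosettes of 4 lines on 2 media. The 7 genes were taken by their locus identifiers from the 33607 genes of the deposited tables. They are AT1G07890 (APX1), AT3G09640 (APX2), AT4G08390 (sAPX), AT1G77490 (tAPX), AT1G20630 (CAT1), AT4G35090 (CAT2) and AT1G20620 (CAT3). All 7 were found in every table. Transcripts of APX1, in the cytosol, and sAPX, in the chloroplast stroma, were lower in rosettes of the control line after iron deprivation, whereas tAPX, on the thylakoid membrane of the same chloroplasts, stayed between 66.4 and 93.6 RPKM in every rosette library of every line.

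Ascorbate peroxidases and catalases both remove hydrogen peroxide, and both carry an iron atom in a heme group at their active site. Ascorbate peroxidases reduce peroxide with ascorbate, which is then regenerated by monodehydroascorbate reductases, and by dehydroascorbate reductases with glutathione. Catalases need no reductant and sit mainly in peroxisomes, where photorespiration in leaves and fatty acid oxidation release peroxide. Plants short of iron are known to hold less activity of several heme enzymes.

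IMA1 OE and IMA3 OE plants carry the open reading frame of an IRON MAN peptide, a small peptide that promotes iron uptake, in the vector pH2GW7 under the constitutive 35S promoter. The opt3-2 line is the T-DNA insertion line Salk_021168, disrupted at OPT3, a phloem transporter of iron. EYFP OE, the control, carries a yellow fluorescent protein gene in the same vector under the 35S promoter and is therefore itself transgenic, while the labels name no such vector in opt3-2. How many independent transformants stand behind each overexpressing line is not given in the sources used here. Seedlings grew for 10 days on full medium under continuous light and were then moved for 72 h to iron-deficient medium, which held no iron and the iron chelator ferrozine, or to control medium with iron. The labels give 100 µM ferrozine in one place and 300 µM in another, and the difference was not resolved. Roots and whole rosettes were sequenced in 2 libraries for each of 16 groups, 32 in all. Many seedlings shared a plate, and no label says how many went into a library or ties the 2 replicates of a group to separate cultures. The p-values of the tests made here therefore reflect only the spread between these libraries, which may be technical. The authors' own p-values, used as an alternative, can be small where libraries overlap.

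Values are RPKM (reads per transcript length and sequenced library), a scale on which levels can be compared between genes. Fold changes are differences of log2(RPKM + 0.5), and tests are limma-type moderated tests adjusted by the Benjamini-Hochberg method. They ran across all genes whose average over a tissue's libraries reached 0.5 RPKM, 20577 in roots and 19521 in rosettes. A gene is said to have risen or fallen at an adjusted p under 0.05. All 7 genes passed the filter in roots and 6 in rosettes, where APX2 was below it and was not tested. Read depth is not known from the deposited values. Precision rests on the spread between the 2 libraries of a group, pooled over all 8 groups of the tissue and moderated across genes. The SE and p-values therefore do not measure the spread of the 2 compared groups alone. With only the compared groups in the spread, none of the calls of members remained. An exact permutation test of 2 against 2 libraries cannot give a p below 0.333 and was not used. Groups are said not to overlap when both libraries of 1 group lie on the same side of both libraries of the other. The share of all genes doing so was counted only where it is printed. Elsewhere a lack of overlap describes the named gene and does not set it apart from other genes. In whole organs, fewer cells of a type and less RNA per cell cannot be told apart.

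The windows of 250 bases upstream of the annotated gene start are shown for the 3 genes that passed a test in at least 1 comparison, 5′ to 3′ on the gene's own strand, from the RefSeq annotation of TAIR10.1. Capitals mark matches, on either strand, to the heat shock element core GAANNTTC or the copper response element core GTAC, and no window of the 3 genes held the G-box CACGTG.
APX1, chr1:2437031-2437280 (+): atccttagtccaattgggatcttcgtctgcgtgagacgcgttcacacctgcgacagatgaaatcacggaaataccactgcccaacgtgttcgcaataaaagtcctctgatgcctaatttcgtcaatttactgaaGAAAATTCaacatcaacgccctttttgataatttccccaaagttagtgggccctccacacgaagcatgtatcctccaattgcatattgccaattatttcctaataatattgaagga
sAPX, chr4:5314621-5314870 (+): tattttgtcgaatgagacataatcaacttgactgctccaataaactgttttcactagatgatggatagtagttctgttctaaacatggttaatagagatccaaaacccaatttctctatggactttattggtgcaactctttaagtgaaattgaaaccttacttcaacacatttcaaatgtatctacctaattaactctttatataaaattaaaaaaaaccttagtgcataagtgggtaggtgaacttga
CAT2, chr4:16703505-16703754 (-): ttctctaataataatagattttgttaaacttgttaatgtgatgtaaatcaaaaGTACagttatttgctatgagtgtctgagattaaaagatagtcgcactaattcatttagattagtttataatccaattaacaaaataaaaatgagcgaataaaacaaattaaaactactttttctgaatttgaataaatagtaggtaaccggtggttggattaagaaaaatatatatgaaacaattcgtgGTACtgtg
APX1 had 1 match to GAANNTTC, 116 bases upstream of the start, a match that 9.55% of 27443 Arabidopsis windows of this length hold. The sAPX window had none of the 3 motifs, and CAT2 had 2 matches to GTAC, which 34.3% of windows hold. Of the other members, APX2 had 1 match each to GAANNTTC, GTAC and CACGTG, the last held by 6.49% of windows. The tAPX window, which runs into the neighbouring gene AT1G77480, had 1 match to GTAC, and CAT1 and CAT3 had none of the 3 motifs. These motifs do not overlap one another in any of the 7 windows, and a match is a string of letters and not a measured binding site. CAT3 (chr1:7142972-7146540) and CAT1 (chr1:7146636-7150180) lie on the same strand 95 bases apart, so that the window of CAT1 runs into CAT3, and reads could be assigned to the wrong one of the pair near that boundary.

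The order of the genes by level differed between the tissues. In rosettes, CAT3 was the most abundant, with a median of 1105 RPKM over 16 libraries (312 to 2339). CAT3, a catalase known to follow the circadian clock, was above CAT2 in 15 of 16 rosette libraries. CAT2, the main leaf catalase of photorespiration, had a median of 429.6 RPKM (259.8 to 604). APX1, the main cytosolic ascorbate peroxidase, had a median of 317 RPKM (81.2 to 668) and was above CAT2 in 6 of 16 rosette libraries, so that these neighbours in the order overlapped. The chloroplast enzymes followed, with sAPX at a median of 88.1 RPKM (8.22 to 129.8) and tAPX at 84.2 RPKM (66.4 to 93.6), and sAPX was above tAPX in 8 of 16 libraries. CAT1, the least abundant catalase, had a median of 22.0 RPKM (9.48 to 28.8). APX2, a cytosolic enzyme known for its induction by heat and excess light, was listed at 0.01 RPKM in 13 of 16 rosette libraries and reached 0.08 RPKM.

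In roots, APX1 led with a median of 506 RPKM (391 to 652) and was above CAT3 and above CAT2 in 16 of 16 libraries. CAT3 had a median of 257 RPKM (150.3 to 354) and CAT2 one of 156 RPKM (103 to 189), with CAT3 above CAT2 in 16 of 16 libraries. The root median of sAPX was 118 RPKM (60.3 to 147), whereas that of tAPX was 2.57 RPKM (2.05 to 3.44). CAT1 had a median of 8.12 RPKM (5.7 to 9.59) in roots and APX2 one of 0.465 RPKM (0.13 to 1.24). Roots and rosettes were normalised in separate tables, so that no test was made between the tissues. The RNA integrity number, a measure of RNA quality, also differed with tissue, at 9.8 to 10 for roots and 8.3 to 8.7 for rosettes.

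**Figure D1:**
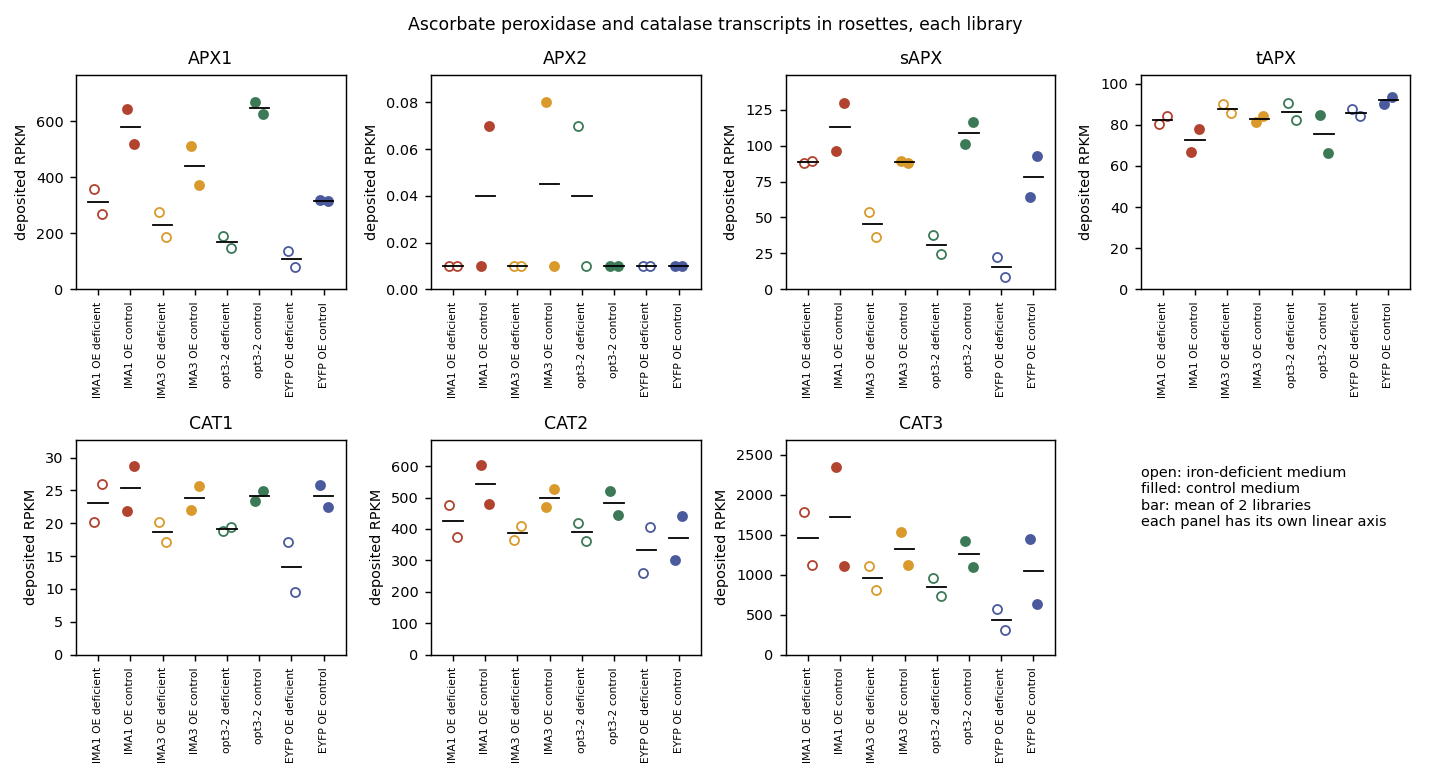
Deposited RPKM of the 7 genes in each rosette library, by line and medium, on a linear axis for each gene; open points are iron-deficient medium, filled points control medium, and bars the mean of 2 libraries. APX1 and sAPX are lowest in EYFP OE on deficient medium, while tAPX lies between 66.4 and 93.6 RPKM throughout.

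In rosettes of EYFP OE, 2 of the 6 tested genes, APX1 and sAPX, fell on deficient medium, against 0.164% of all 19521 genes called lower. All 6 had a negative fold change, with a median of -1.04 beside 0.00 over all tested genes, and 5 of 6 had both deficient libraries below both control libraries, as had 9.72% of all genes tested. APX1 had 137 and 81.2 RPKM on deficient medium, against 319.5 and 315 RPKM on control medium. The deficient libraries lay far below the controls and differed between themselves more than the controls did. The log2 fold change of APX1 was -1.59 (SE 0.27, adjusted p = 0.0375). For sAPX the deficient libraries held 22.3 and 8.22 RPKM, against 64.3 and 92.6 RPKM in the control libraries. Both deficient values were below both controls, and the log2 fold change was -2.46 (SE 0.39, adjusted p = 0.0256). The second deficient library had the lowest level of APX1, sAPX, CAT1 and CAT3 of all 16 rosette libraries.

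The other rosette genes of EYFP OE did not pass the test. CAT3 held 564 and 312 RPKM on deficient medium and 1448 and 632 RPKM on control medium (log2 fold change -1.19, SE 0.46, adjusted p = 1). CAT3 passed with the authors' p-values adjusted over all genes, besides APX1 and sAPX, against 0.451% of all genes. Its 2 control libraries differed from each other by more than the upper deficient library differed from the lower control library. For CAT3, however, replicate 1 was above replicate 2 in 8 of 8 rosette groups. Each deficient library was below the control library of the same number (564 against 1448 RPKM and 312 against 632 RPKM). With the replicate number as a block, a pairing not accepted here, CAT3 was called lower. CAT1 held 17.1 and 9.48 RPKM on deficient medium and 25.8 and 22.5 RPKM on control medium, without overlap (log2 fold change -0.89, adjusted p = 0.487). CAT2 overlapped between the media, with 259.8 and 406 RPKM on deficient medium and 303 and 442 RPKM on control medium (-0.17). The thylakoid enzyme tAPX held 87.7 and 84.1 RPKM on deficient medium and 90.3 and 93.6 RPKM on control medium (-0.10, SE 0.12). Both deficient values of tAPX were below both controls, by a small margin. APX2 was at 0.01 RPKM in all 4 libraries.

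The calls in EYFP OE rosettes depend on single libraries. Without the first deficient library, APX1 (-1.96, adjusted p = 0.0167), sAPX (-3.15, adjusted p = 0.0015) and also CAT1 (-1.30, adjusted p = 0.024) were called lower by the limma-type test. No gene was called without the second deficient library (APX1 -1.21, adjusted p = 0.416, and sAPX -1.77, adjusted p = 0.124), without the first control library (0.268 for APX1 and 0.0725 for sAPX) or without the second control library (0.315 for APX1 and 0.301 for sAPX).

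In opt3-2 rosettes, 1 of 6 genes fell on deficient medium, against 0.0973% of all genes called lower. APX1 had 189.9 and 146 RPKM on deficient medium and 668 and 625 RPKM on control medium. The 2 groups were far apart, and the log2 fold change was -1.98 (SE 0.27, adjusted p = 0.0162). It missed the threshold when any 1 of the 4 libraries was left out, with adjusted p = 0.0633 and 0.169 without the first and the second control library and 0.107 and 0.163 without the first and the second deficient library. For sAPX the values were 37.9 and 24.3 RPKM on deficient medium and 101 and 117 RPKM on control medium, without overlap, a log2 fold change of -1.85 (SE 0.39) that missed the threshold (adjusted p = 0.138). CAT3, at 963 and 735 RPKM on deficient medium against 1420.1 and 1096 RPKM on control medium, had a log2 fold change of -0.60 (adjusted p = 1). CAT1 (-0.35) and CAT2 (-0.32) were also below their controls without overlap, and tAPX overlapped (0.17). The share of all genes without overlap was not counted for this response.

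In rosettes of the IRON MAN lines no member passed the limma-type test. Over all genes 0% were called in IMA1 OE and 0.0359% in IMA3 OE. At an unadjusted p under 0.05 were 1 of 6 members in IMA1 OE, against 1.37% of all genes, and 2 of 6 in IMA3 OE, against 1.23%. In IMA1 OE, APX1 held 357 and 269 RPKM on deficient medium and 645 and 518 RPKM on control medium (log2 fold change -0.91, SE 0.27, adjusted p = 1). The stromal sAPX held 88.2 and 89.5 RPKM on deficient medium and 96.6 and 129.8 RPKM on control medium (-0.33, SE 0.39). Its deficient values were close to its lower control value. In IMA3 OE, APX1 held 276 and 186 RPKM on deficient medium and 511 and 372 RPKM on control medium (-0.96). The stromal enzyme of that line held 53.9 and 36.5 RPKM on deficient medium and 89.5 and 87.9 RPKM on control medium (-0.99). Both genes were below their controls without overlap in both lines, and the share of all genes doing so was not counted. CAT3 overlapped between the media in IMA1 OE (-0.21) and not in IMA3 OE (-0.48).

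**Figure D2:**
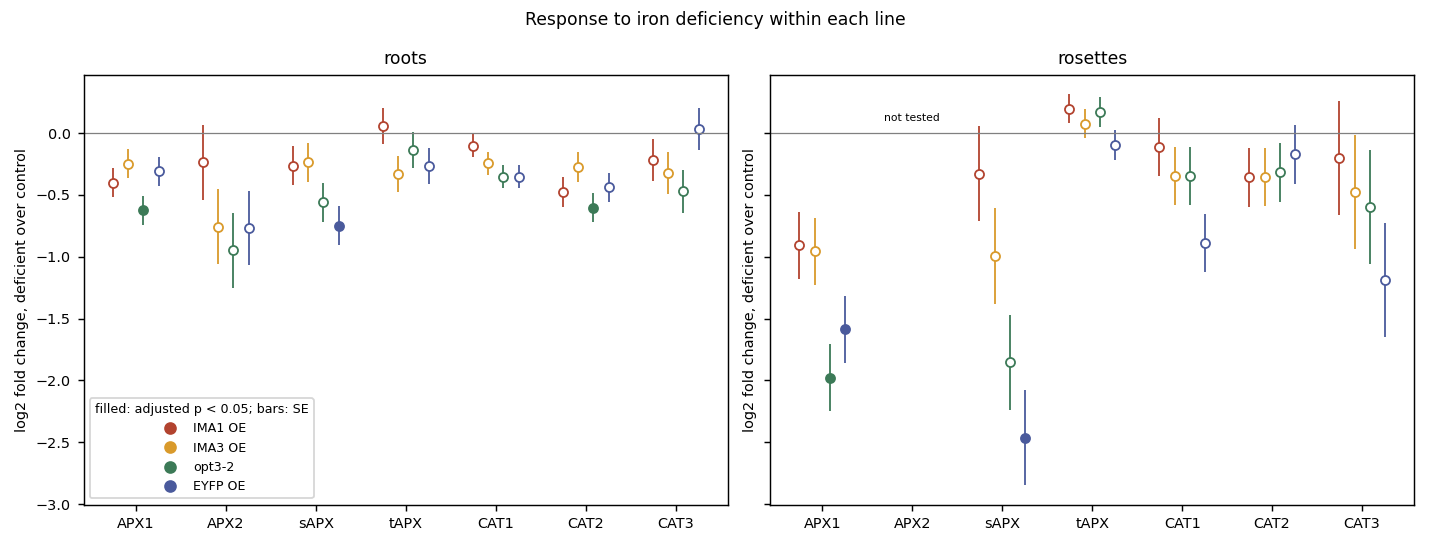
Log2 fold change of each gene on iron-deficient over control medium in roots (left) and rosettes (right), by line; points are fold changes of log2(RPKM + 0.5), bars their SE, and filled points have an adjusted p under 0.05. Rosette values of sAPX run from -0.33 in IMA1 OE to -2.46 in EYFP OE. Root values over all genes shown run from -0.95, for APX2, to 0.06.

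In EYFP OE roots 1 of 7 genes, sAPX, fell on deficient medium, against 0.442% of all 20577 genes called lower. It held 89.1 and 60.3 RPKM on deficient medium and 117 and 130.2 RPKM on control medium. The deficient libraries were both below both controls, with a log2 fold change of -0.75 (SE 0.16, adjusted p = 0.0291). Without the first deficient library, sAPX (-1.03, adjusted p = 0.00255) and CAT2 (-0.67, adjusted p = 0.00268) were both called lower, and without any other of the 4 libraries no member was. With the authors' p-values adjusted no member passed, against 0.778% of all genes. The adjusted p of sAPX was then 0.186 without the second deficient library and 0.101 and 0.208 without the first and the second control library. Of the remaining genes, CAT2 held 141 and 103 RPKM on deficient medium and 159 and 168 RPKM on control medium (-0.44, adjusted p = 0.097). CAT1 held 5.7 and 6.07 RPKM on deficient medium and 8.25 and 7.1 RPKM on control medium (-0.35, adjusted p = 0.0883). APX1 (-0.31), APX2 (-0.77) and tAPX (-0.27) were below their controls without overlap, and the share of all genes doing so was not counted. CAT3 was the exception, with 259 and 279 RPKM on deficient medium and 272 and 253 RPKM on control medium, overlapping (0.04).

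In opt3-2 roots 2 of 7 genes fell, against 0.428% of all genes called lower, and the median over the 7 was -0.56 beside 0.02 over all genes. APX1 had 442 and 396 RPKM on deficient medium and 619.99 and 649.6 RPKM on control medium, a log2 fold change of -0.62 (SE 0.12, adjusted p = 0.0321). CAT2 had 130.7 and 119 RPKM on deficient medium and 189 and 188 RPKM on control medium, a log2 fold change of -0.60 (SE 0.12, adjusted p = 0.0444). In both genes the groups were apart by more than the spread within either. Neither remained called when any 1 of the 4 opt3-2 libraries was left out: without the first control library the adjusted p was 0.163 for APX1 and 0.225 for CAT2, without the second 0.236 and 0.232, without the first deficient library 0.095 and 0.137, and without the second 0.226 and 0.269. With no variance trend the adjusted p was 0.0517 for APX1 and 0.0759 for CAT2. CAT1 held 6.39 and 6.61 RPKM on deficient medium and 8.79 and 8.38 RPKM on control medium, without overlap. APX2 was also below its controls without overlap, and tAPX overlapped. The share of all genes without overlap was not counted for this response. The sAPX values were 94.7 and 74.8 RPKM on deficient medium and 128 and 120.3 RPKM on control medium (-0.56, adjusted p = 0.199). CAT3 held 150.3 and 174 RPKM on deficient medium and 198 and 252 RPKM on control medium (-0.47, adjusted p = 0.393). Leaf marker transcripts moved with these values: the summed RPKM of 8 photosynthetic genes was 102 and 141 in deficient opt3-2 roots and 159.9 and 273 in control opt3-2 roots, against 21820 to 33428 in rosettes. In EYFP OE roots that sum was 216 and 287 on deficient medium and 347 and 341 on control medium. None of the 8 was at 0 in any root library, and their part in the root values, among them those of tAPX, was not tested.

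No member passed the limma-type test in the roots of IMA1 OE, where 1.12% of all genes were called, or of IMA3 OE, where 0.695% were. At an unadjusted p under 0.05 were 2 of 7 members in IMA1 OE, against 6.88% of all genes, and 4 of 7 in IMA3 OE, against 5.87%. Median fold changes over the 7 were -0.23 in IMA1 OE and -0.28 in IMA3 OE, beside -0.01 over all genes in each. CAT2 was below its controls without overlap in both lines, with 139 and 130.5 RPKM on deficient medium against 186 and 186 RPKM in IMA1 OE, and 153 and 136 RPKM against 177 and 184 RPKM in IMA3 OE. APX1 had log2 fold changes of -0.40 in IMA1 OE and -0.25 in IMA3 OE, and sAPX had -0.26 and -0.24. CAT1 was below its controls without overlap in both lines, CAT3 in IMA1 OE and tAPX in IMA3 OE. CAT3 in IMA3 OE and tAPX in IMA1 OE overlapped between the media. The share of all genes without overlap was not counted for these responses. APX2 was low throughout, with 0.13 to 0.49 RPKM over the 8 deficient and 0.37 to 1.24 RPKM over the 8 control root libraries of the 4 lines, and its fold changes (-0.95 to -0.24) are understated by the pseudocount.

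**Figure D3:**
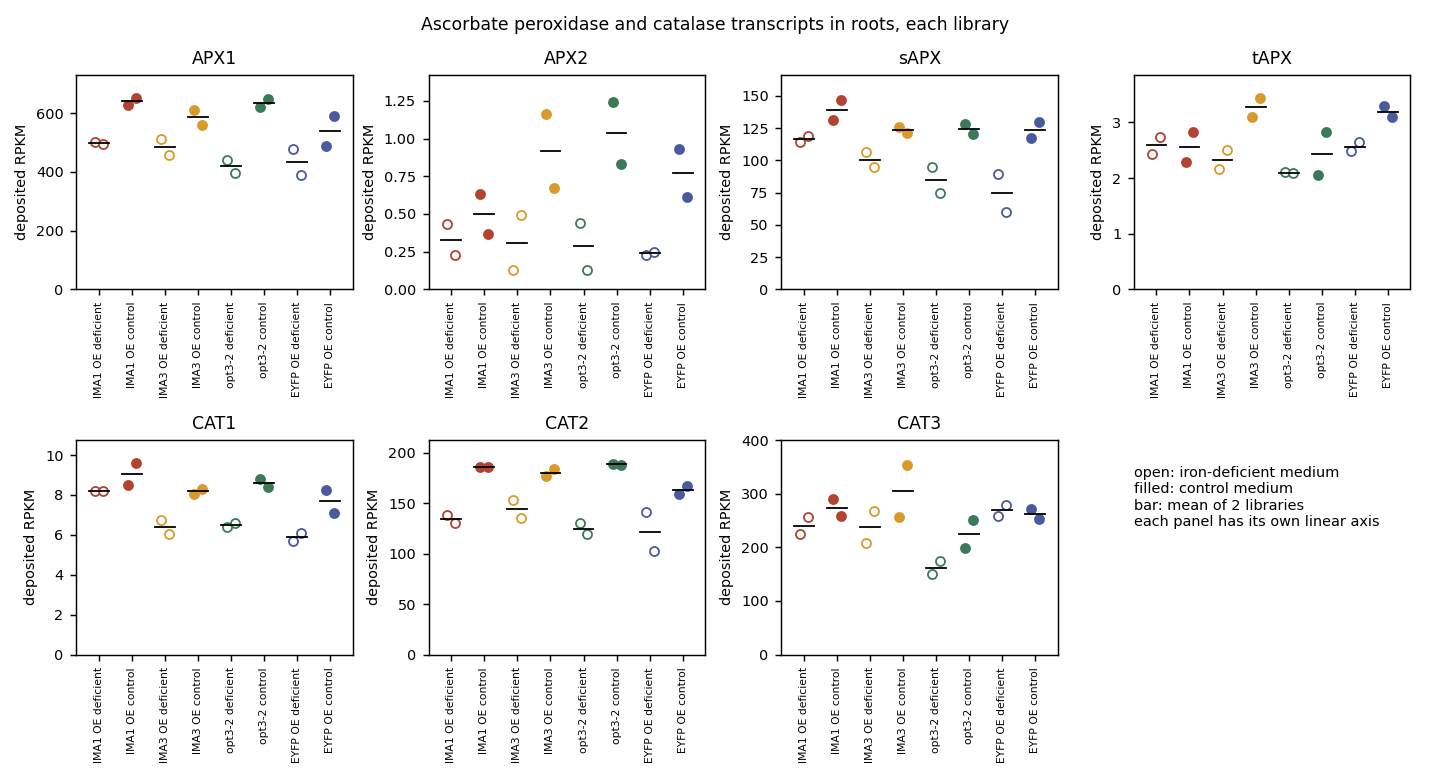
Deposited RPKM of the 7 genes in each root library, drawn as in the rosette plot of levels. Deficient libraries of APX1 and CAT2 lie below their own line's control libraries in each of the 4 lines, and CAT3 is lowest in opt3-2 on deficient medium, at 150.3 and 174 RPKM.

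Each line was set against EYFP OE on the same medium. In rosettes on deficient medium 2 of 6 genes were higher in IMA1 OE than in EYFP OE, against 0.307% of all genes called higher, and the median over the 6 was 1.18 beside -0.03 over all genes. In the table that holds these 2 groups, sAPX had 88.9 and 90.2 RPKM in IMA1 OE and 22.8 and 8.46 RPKM in EYFP OE. The IMA1 OE values lay close together and far above both EYFP OE values, with a log2 fold change of 2.64 (SE 0.39, adjusted p = 0.0107). APX1 had 356 and 270.2 RPKM in IMA1 OE and 135 and 81.3 RPKM in EYFP OE, a log2 fold change of 1.56 (SE 0.27, adjusted p = 0.0308). CAT3 had 1797 and 1113 RPKM in IMA1 OE and 546 and 302 RPKM in EYFP OE, without overlap, and a log2 fold change of 1.8 (SE 0.46) that did not pass the test (adjusted p = 0.197). With the authors' p-values adjusted over all genes it passed besides APX1 and sAPX, against 0.932% of all genes. CAT1 was also higher without overlap (0.81, adjusted p = 0.287), while CAT2 (0.38) and tAPX (-0.05) overlapped.

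These calls, too, moved with single libraries. Without the first EYFP OE library on deficient medium, sAPX (3.33, adjusted p = 0.000897), APX1 (1.92, adjusted p = 0.0153) and CAT1 (1.21, adjusted p = 0.03) were called higher by the limma-type test. Without the second EYFP OE library only sAPX was (1.95, adjusted p = 0.0407), and APX1 was not (1.19, adjusted p = 0.174). Without the first IMA1 OE library no gene was (0.126 for sAPX and 0.338 for APX1), nor without the second (0.0934 for both genes).

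In rosettes on deficient medium no member passed the limma-type test in IMA3 OE or opt3-2, where 0.0359% and 0.0461% of all genes were called. In each of these lines 4 of 6 members had an unadjusted p under 0.05, against 3.59% of all genes in IMA3 OE and 3.34% in opt3-2. With the authors' p-values adjusted over all genes 3 members passed in IMA3 OE (APX1, sAPX and CAT3), against 0.507% of all genes, and 1 in opt3-2 (CAT3), against 0.394%. In IMA3 OE, APX1 had 276 and 186 RPKM, against 136 and 81.3 RPKM in EYFP OE (1.11, adjusted p = 0.453). The sAPX values there were 54.4 and 36.8 RPKM in IMA3 OE and 22.6 and 8.36 RPKM in EYFP OE, a log2 fold change of 1.66 (adjusted p = 0.387) that was called without the first EYFP OE library (2.35, adjusted p = 0.0237). In opt3-2, APX1 had 190.4 and 147 RPKM, against 136 and 82.2 RPKM in EYFP OE (0.66), and sAPX had 38.3 and 24.6 RPKM, against 23.0 and 8.54 RPKM (1.1). APX1, sAPX, CAT1 and CAT3 lay above EYFP OE without overlap in each of the 3 lines, as did 14.3% of all genes in IMA1 OE, 10.3% in IMA3 OE and 11% in opt3-2. The 3 comparisons share the same EYFP OE libraries.

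On control medium no member passed the limma-type test in rosettes of any line. The share of all genes called was 0.0666% in IMA1 OE, 0% in IMA3 OE and 0.174% in opt3-2, and 3, 0 and 1 of the 6 members had an unadjusted p under 0.05, against 6.78%, 3.19% and 8.07% of all genes. With the authors' p-values adjusted over all genes, 3 members passed in each line (APX1, CAT2 and CAT3), against 0.569% of all genes in IMA1 OE, 0.215% in IMA3 OE and 0.891% in opt3-2. CAT3 passed there although its libraries overlapped those of EYFP OE in each line. APX1 was above EYFP OE without overlap in each of the 3 lines. It held 645 and 518 RPKM in IMA1 OE, against 311 and 307 RPKM in EYFP OE (0.90, SE 0.27, adjusted p = 0.406). In opt3-2 it held 668 and 625 RPKM, against 308 and 304 RPKM in EYFP OE (1.08, SE 0.27, adjusted p = 0.196). In IMA3 OE the log2 fold change of APX1 was 0.49. CAT2 was likewise above EYFP OE without overlap in the 3 lines, with log2 fold changes of 0.55 in IMA1 OE, 0.41 in IMA3 OE and 0.41 in opt3-2. The margin was narrow in opt3-2, where the lower library held 444 RPKM and the upper EYFP OE library at least 438 RPKM. The tAPX values were below EYFP OE without overlap in the 3 lines, at -0.34, -0.13 and -0.26. The sAPX values were above EYFP OE without overlap in IMA1 OE (96.6 and 129.8 RPKM) and opt3-2 (101 and 117 RPKM). The upper EYFP OE library held at most 92.7 RPKM of sAPX. In IMA3 OE sAPX overlapped, and CAT1 overlapped in each line. All 3 lines were set against the same EYFP OE libraries, and the share of all genes without overlap was not counted here.

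In roots no member passed the limma-type test between a line and EYFP OE on either medium. On control medium the share of all genes called was 0.369% in IMA1 OE, 0.204% in IMA3 OE and 0.972% in opt3-2, and 2, 0 and 2 of the 7 members had an unadjusted p under 0.05, against 5.37%, 7.16% and 11% of all genes. On deficient medium the shares were 0.131%, 0.131% and 0.0875%, with 2, 3 and 1 members at an unadjusted p under 0.05, against 4.66%, 7.18% and 4.99% of all genes. With the authors' p-values adjusted, no member passed on control medium, against 0.253%, 0.214% and 0.389% of all genes in the 3 lines. On deficient medium 1 member passed, CAT3 in opt3-2, against 0.18% of all genes in IMA1 OE, 0.389% in IMA3 OE and 0.238% in opt3-2. The value farthest from 0 was that of CAT3 in opt3-2 on deficient medium, with 150.3 and 176 RPKM in opt3-2 and 261 and 280.5 RPKM in EYFP OE. The groups were apart, and the log2 fold change was -0.73 (SE 0.17, adjusted p = 0.367). On deficient medium sAPX held 114 and 119 RPKM in IMA1 OE, against 89.6 and 60.4 RPKM in EYFP OE (0.66, adjusted p = 0.388), and was called higher without the first EYFP OE library (0.94, adjusted p = 0.0219). CAT1 held 8.03 RPKM in both IMA1 OE libraries, against 5.65 and 6.02 RPKM in EYFP OE (0.43, adjusted p = 0.273).

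**Figure D4:**
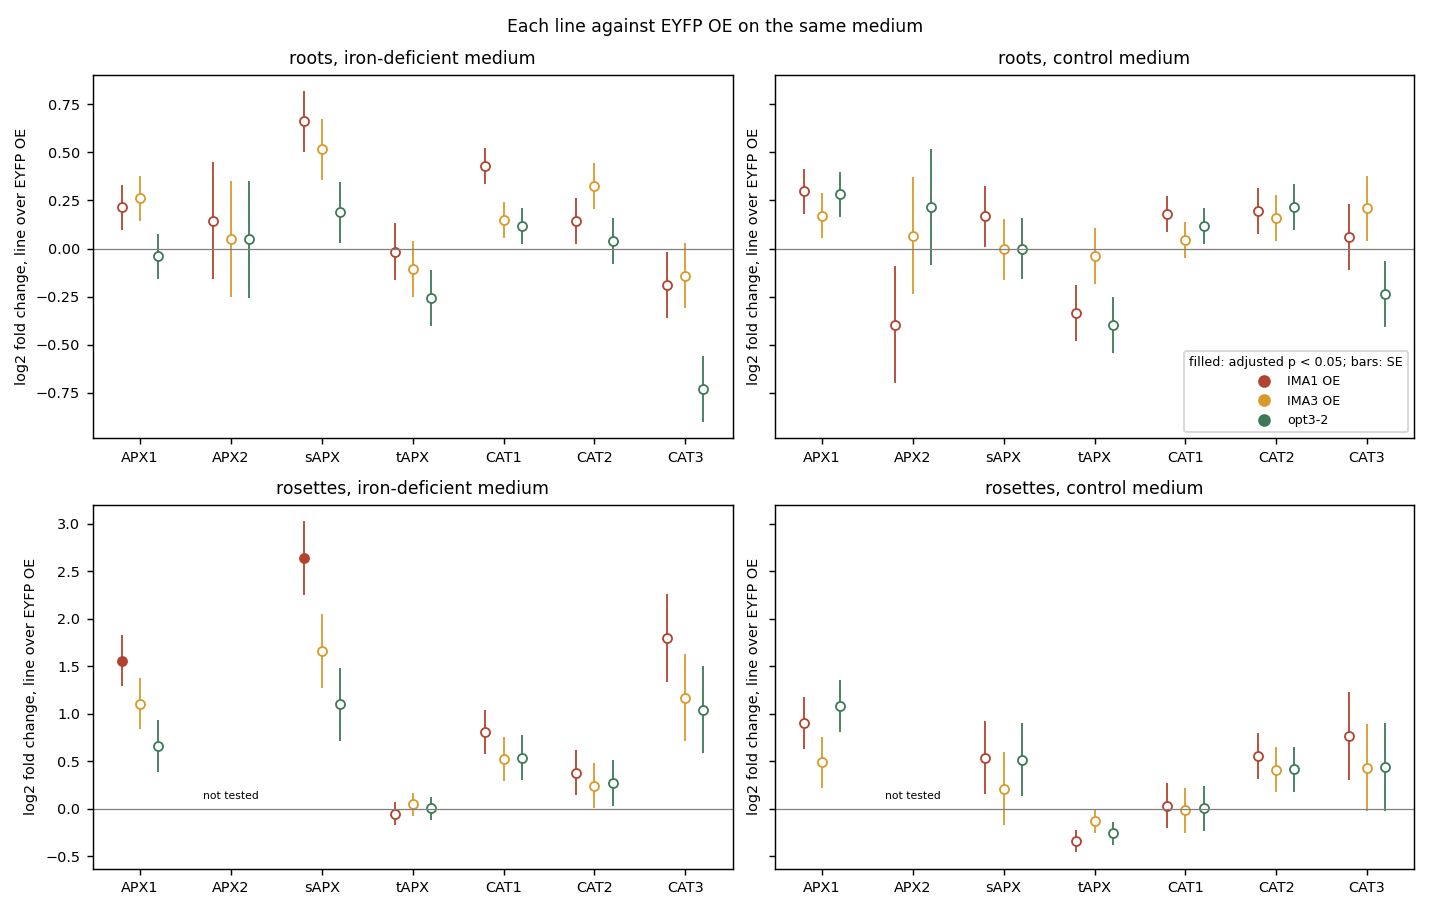
Log2 fold change of each gene in IMA1 OE, IMA3 OE and opt3-2 over EYFP OE on deficient (left) and control medium (right), in roots (top) and rosettes (bottom); bars are the SE and filled points have an adjusted p under 0.05. The filled points are APX1 (1.56) and sAPX (2.64) of IMA1 OE in rosettes on deficient medium.

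Whether a line responded differently from EYFP OE was tested as the difference between the 2 responses, and no member passed that limma-type test in either tissue. In rosettes 0.00512% of all genes were called for IMA1 OE and 0% for IMA3 OE and opt3-2, and 2, 1 and 0 of the 6 members had an unadjusted p under 0.05, against 1.86%, 1.29% and 2.24% of all genes. The response of sAPX was less negative by 2.1 in IMA1 OE than in EYFP OE (SE 0.54, adjusted p = 0.939), by 1.45 in IMA3 OE (SE 0.54) and by 0.58 in opt3-2 (SE 0.54). Without the first deficient EYFP OE library the difference for IMA1 OE was 2.79 and passed the test (adjusted p = 0.0346). For APX1 the differences were 0.66, 0.62 and -0.42 (SE 0.38 each). In roots 0.068%, 0.131% and 0.433% of all genes were called for IMA1 OE, IMA3 OE and opt3-2, and 1, 1 and 0 of the 7 members had an unadjusted p under 0.05, against 4.04%, 5.38% and 8.29% of all genes. The root differences of sAPX were 0.49 in IMA1 OE, 0.52 in IMA3 OE and 0.19 in opt3-2 (SE 0.22 each). A call in EYFP OE beside none in another line is therefore not a tested difference between the lines.

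The summed level of the 4 ascorbate peroxidase genes in EYFP OE rosettes was 247 and 174 RPKM on deficient medium and 474 and 501 RPKM on control medium. APX1 made up 51.1% ± 6.09 of it on deficient medium and 65.1% ± 3.21 on control medium (SD, n = 2 each). The share of tAPX was 42.0% ± 9.13 on deficient medium and 18.9% ± 0.272 on control medium. The ratio of sAPX to tAPX, the stromal to the thylakoid enzyme, was 0.254 and 0.0977 on deficient medium and 0.711 and 0.99 on control medium. In IMA1 OE the ratio was 1.1 and 1.06 on deficient medium and 1.45 and 1.66 on control medium. In opt3-2 it was 0.419 and 0.296 on deficient medium and 1.19 and 1.75 on control medium, and in IMA3 OE 0.599 and 0.426 on deficient medium and 1.1 and 1.05 on control medium. In each line both deficient ratios were below both control ratios. The summed catalase level of EYFP OE rosettes was 841 and 727 RPKM on deficient medium and 1777 and 1096 RPKM on control medium, and CAT3 made up 55.0% ± 17.1 of it on deficient medium and 69.6% ± 16.9 on control medium, which overlapped.

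**Figure D5:**
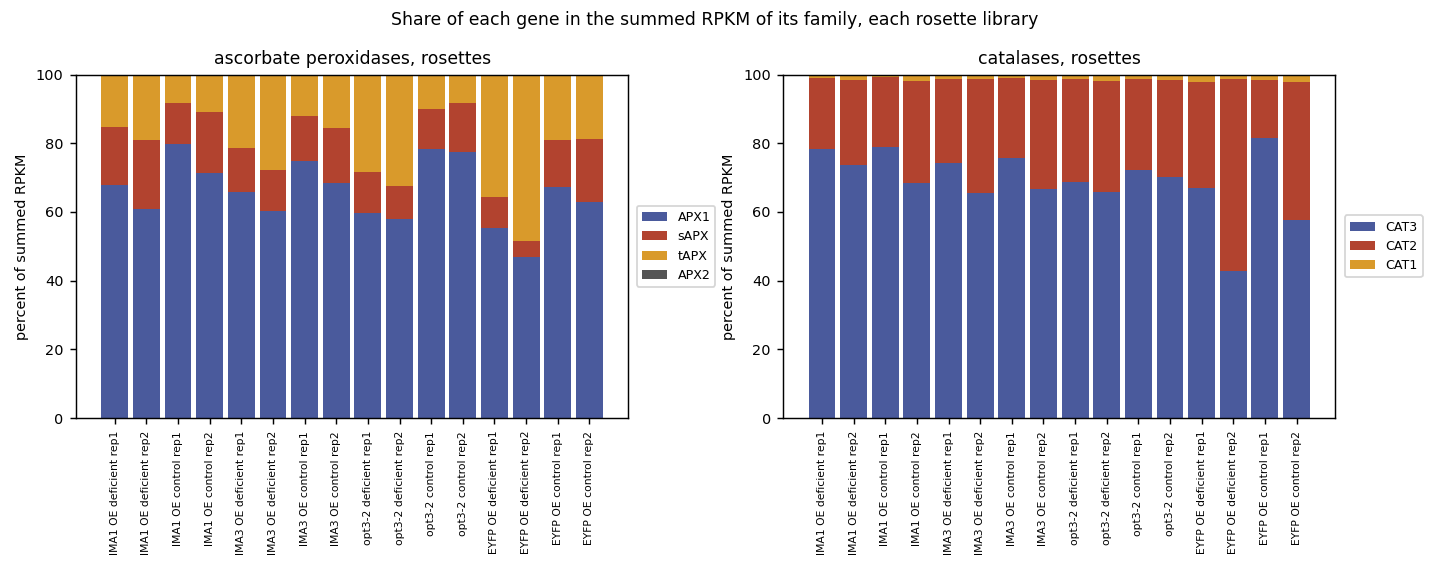
Percent of the summed RPKM of the 4 ascorbate peroxidases (left) and the 3 catalases (right) contributed by each gene in every rosette library. The tAPX share is widest in EYFP OE on deficient medium, at 35.6% and 48.5%, and APX2 is too low to be seen.

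Genes that work with these enzymes were described through 11 lists of 99 genes, the remaining ascorbate peroxidase family, ascorbate and glutathione recycling and synthesis, thiol peroxidases, peroxisomal peroxide production, peroxisomal photorespiration, catalase partners, heat shock, peroxide response factors, class III heme peroxidases, and heme synthesis and breakdown. In rosettes of EYFP OE 0 of the 90 tested genes of these lists passed the limma-type test on deficient medium, where 3 had an unadjusted p under 0.05 and 2 passed with the authors' p-values adjusted over all genes. Over all 19521 genes, 494 had an unadjusted p under 0.05 and 0.451% passed with the authors' p-values adjusted. The other ascorbate peroxidase family genes had log2 fold changes near 0 there, with -0.02 for APX3, a peroxisomal enzyme, -0.07 for APX4, 0.00 for APX5 and -0.04 for APX6, and no gene of this list was called in any of the 26 comparisons. List medians ran from -0.19 for 15 class III peroxidases to 0.07 for 2 catalase partners, with -0.07 for 10 recycling genes and -0.02 for 5 photorespiration genes, beside 0.00 over all tested genes. In IMA1 OE against EYFP OE on deficient medium 0 of the 90 passed in rosettes (12 at an unadjusted p under 0.05, and 3 with the authors' p-values adjusted). Over all 19521 genes, 1527 had an unadjusted p under 0.05 and 0.932% passed with the authors' p-values adjusted. List medians there ran from -0.07 for the other ascorbate peroxidases to 0.75 for 5 peroxide response factors, with 0.35 for 15 class III peroxidases, beside -0.03 over all genes.

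Among recycling enzymes, MDAR1, a monodehydroascorbate reductase of the cytosol and peroxisome, had 276 and 300.3 RPKM in deficient and 135 and 147 RPKM in control roots of EYFP OE. It rose by 1.03 on the log2 scale (SE 0.13, adjusted p = 0.000867), the opposite sign to sAPX in the same roots, and rose in IMA1 OE roots by 0.69 (adjusted p = 0.0245). MDAR2 fell in opt3-2 rosettes on deficient medium, with 52.1 and 62.3 RPKM against 96.2 and 110.5 RPKM on control medium (-0.88, adjusted p = 0.0135). On control medium MDAR2 was higher in opt3-2 rosettes than in EYFP OE rosettes (0.80, adjusted p = 0.0329). In EYFP OE roots the peroxisomal acyl-CoA oxidase gene ACX3 rose by 0.25 (adjusted p = 0.0249). HEMA1 and HEMA2 encode glutamyl-tRNA reductases, which start tetrapyrrole and heme synthesis, and went opposite ways in those roots: HEMA1 fell by 0.77 (adjusted p = 0.00461) and HEMA2 rose by 0.42 (adjusted p = 0.0179). HEMA1 also fell in opt3-2 roots (-0.69, adjusted p = 0.0236). The peroxiredoxin PRXIID was higher in opt3-2 than in EYFP OE roots on control medium (1.1, adjusted p = 0.0059).

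Some class III heme peroxidases, secreted enzymes that also carry heme, changed in roots. PRX57 rose in EYFP OE (0.40, adjusted p = 0.0279), PRX34 (-0.57) and PRX69 (-0.54) fell in IMA1 OE, and PRX52 (-1.89) fell in IMA3 OE. In opt3-2 roots on deficient medium 4 of 21 fell, against 0.428% of all genes called lower, and 2 had a positive fold change. The list median was -0.40 beside 0.02 over all genes. PRX52 had 0.33 and 0.46 RPKM on deficient and 3.64 and 5.86 RPKM on control medium (-2.48, adjusted p = 0.00531), and its response differed from that of EYFP OE (-3.24, adjusted p = 0.0128). PRX34 had 216 and 235 RPKM on deficient medium and 348 and 362 RPKM on control medium (-0.66, adjusted p = 0.0258), and PRX33 (-1.39) and PRX69 (-0.58) also fell. PRX33 and PRX34 are near-identical neighbours, and how reads were split between them is uncertain. On control medium 3 of 21 were higher in opt3-2 roots than in EYFP OE roots, PRX52 (2.56), PRX33 (1.75) and PRX34 (0.92), against 187 of all 20577 genes called higher. PRX34 was also higher in IMA1 OE (0.69, adjusted p = 0.0371) and IMA3 OE (0.80, adjusted p = 0.023). On deficient medium PRX34 was higher in IMA3 OE than in EYFP OE roots (1.07, adjusted p = 0.0121).

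By likeness of pattern over the 8 rosette groups, the genes closest to sAPX were AT1G68650 (Pearson's r 0.997), AT3G20510 (0.994) and AT5G45410 (0.993), among 1322 genes whose group means spanned at least 1 on the log2 scale. In roots APX2 had the widest span of the 7, at 0.985 beside 0.917 for CAT3 and 0.916 for sAPX. The genes closest to it were PLP4 (AT4G37050, r 0.95), MIR398c (AT5G14565, r 0.95) and AT4G21250 (r 0.936), among 1051 genes. APX2 held only 0.13 to 1.24 RPKM in roots, near the pseudocount of 0.5, and its own span was under the 1 asked of those genes. Its pattern is therefore uncertain. The 8 groups share libraries with the fold changes above, and these correlations describe group means of 2 libraries.

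The labels and the response were checked in the same tables. FER1, a plastid ferritin that stores iron, held 9.34 and 4.5 RPKM in deficient and 56.3 and 287 RPKM in control rosettes of EYFP OE, and FSD1, an iron superoxide dismutase, held 16.8 and 12.5 RPKM and 404 and 667 RPKM, and both fell (FER1 -4.19, FSD1 -5.11). In roots of the lines on control medium IMA1 was higher in IMA1 OE (6.52), IMA3 was higher in IMA3 OE (4.68) and OPT3 was lower in opt3-2 (-1.74) than in EYFP OE, each called by the limma-type test. The summed level of 8 leaf markers was 21820 to 33428 RPKM in rosettes and 102 to 372 RPKM in roots, and that of 7 root markers was 1.89 to 4.38 RPKM in rosettes and 284 to 387 RPKM in roots.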

How the data were processed

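RNA sequencing libraries of roots and whole rosettes (4 lines, 2 media, 2 libraries a group) were analysed from 26 tables that the authors deposited, each holding a pair of groups of the same tissue. The deposited values are on the RPKM scale, which was inferred from the values because headers give no unit; library totals ran from 648929 to 743166 RPKM. The sorted values of a table's 4 libraries nearly coincide (median range at most 0.0207 log2), and the step that did this is not given in the sources used here. The deposited tables also hold the authors' log2 fold changes, and an unadjusted p-value by the authors' Z-test served as an alternative. The Z-test p-value can be small where libraries overlap. It was 1.61e-08 for CAT3 in IMA3 OE against EYFP OE in control rosettes, where the libraries of the 2 groups overlapped. Per the submitters' processing notes, the tools were limma 3.26.9, edgeR 3.12.1, Bowtie2 2.0.6, bcl2fastq 1.8.4 and Trimmomatic 0.35, with build TAIR10; libraries were polyA-selected and strand-specific per the labels' protocols. Depth is unknown, so no counting interval is given. For rosettes, titles and tissue fields were followed where another label field names roots.

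Values became log2(RPKM + 0.5), and genes averaging 0.5 RPKM or more over a tissue were tested. Fold changes of the 26 comparisons stayed inside the tables that hold their groups; responses of IMA1 OE, IMA3 OE and opt3-2 went through their tables with EYFP OE control. The spread came from all 8 groups of the tissue (8 residual df), moderated with trend by squeezeVar (limma 3.58.1, R 4.3.3), 2-sided, Benjamini-Hochberg within a comparison. Levels are from the tables with EYFP OE control; between tables a library differed by a median SD of at most 0.02 log2. The scripts were tested on simulated data. Promoter windows were cut in Python 3.11.15 from RefSeq TAIR10.1. Figures were drawn with matplotlib 3.10.9. The members, lists and filter were chosen with earlier results of these data known. All 7 members were tested where they passed the filter, and a member not named in a paragraph is not thereby shown to be unchanged. In each other list, up to 4 genes past the test with the largest change may be named.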

Additional observations from a re-analysis of the deposited data

Results flagged for a closer look

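The response of tAPX in IMA3 OE went opposite ways in the tissues without overlap between libraries. In roots both deficient libraries (2.16 and 2.5 RPKM) were below both control libraries (3.1 and 3.44 RPKM), a log2 fold change of -0.33 (adjusted p = 0.803 by the limma-type test). In rosettes both deficient libraries (89.99 and 85.7 RPKM) were above both control libraries (81.5 and 84.1 RPKM), a log2 fold change of 0.077 (adjusted p = 1). The difference between the tissues was not tested.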

How the results depend on the processing

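Counts are of members called. In 15 of 26 comparisons the count was unchanged under every setting other than a left-out replicate. Without a filter on low values the count was 0, and with only the compared groups entering the spread it was 0 in the 5 comparisons with calls (responses of EYFP OE and opt3-2 in roots and in rosettes, and IMA1 OE against EYFP OE in deficient rosettes). With no variance trend it was 0 for the opt3-2 root response. With the authors' p-values it was 0 for the EYFP OE root response, 1 (CAT3) for opt3-2 against EYFP OE on deficient medium in roots and 1 (CAT3) in rosettes, and 3 for each line against EYFP OE in control rosettes (APX1, CAT2, CAT3) and for the EYFP OE rosette response and IMA1 OE and IMA3 OE in deficient rosettes (APX1, sAPX, CAT3).

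With the replicate number as a block the count was 2 (sAPX, CAT2) for the EYFP OE root response, 1 (CAT3) for opt3-2 in deficient roots, and 1 (APX1) for each of IMA1 OE and opt3-2 in control rosettes and IMA3 OE in deficient rosettes. It was 3 (APX1, sAPX, CAT3) for the EYFP OE rosette response (CAT3 adjusted p = 0.0263) and for IMA1 OE in deficient rosettes (CAT3 adjusted p = 0.00141), and the 8 calls of the report also passed. The block raised calls over all genes too. Of 20577 in roots, 863 instead of 530 were called for the EYFP OE response and 110 instead of 18 for opt3-2 on deficient medium. Of 19521 in rosettes, 73 instead of 13 were called for IMA1 OE and 200 instead of 34 for opt3-2 on control medium. On deficient medium these were 24 instead of 7 for IMA3 OE and 232 instead of 103 for IMA1 OE, and 85 instead of 66 for the EYFP OE response. Deviations of same-numbered libraries correlated by 0.0189 to 0.483 over 28 group pairs in roots (median 0.233, 26 pairs over 0.1) and by -0.00956 to 0.566 in rosettes (median 0.369, 27 over 0.1). Pairing was accepted only if every pair passed 0.1, which was not met, so the samples are treated as sharing only a number. The data hint otherwise in that the deviations of 16 of 16 libraries in each tissue correlated best with those of a same-numbered library of another group. The 2 libraries of a group deviate by equal and opposite amounts, so that this count stands for 8 groups in each tissue.

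Leaving out 1 replicate gave 0 to 2 for the EYFP OE and 0 to 0 for the opt3-2 root response, 0 to 1 for IMA1 OE in deficient roots, 0 to 3 for the EYFP OE and 0 to 0 for the opt3-2 rosette response, 0 to 3 for IMA1 OE and 0 to 1 for IMA3 OE in deficient rosettes, and 0 to 1 for the IMA1 OE rosette difference in response. A left-alone library is assumed to vary like the other groups. No called value changed sign in any setting run. CAT3 against EYFP OE in control rosettes, not called, changed sign when a library was left out (-0.15 to 1.01 in IMA3 OE and -0.11 to 0.99 in opt3-2, the negative values without the second EYFP OE library). Depth is unknown, and 2 libraries a group limit every call.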

Other observations

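Replicate 1 was above replicate 2 in 8 of 8 rosette groups for CAT3 and for APX1, and in 2 of 8 root groups for CAT3 and 5 of 8 for APX1; for CAT3 the pair was 1448 and 632 RPKM in EYFP OE control rosettes and 2339 and 1107 RPKM in IMA1 OE control rosettes.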
